A study of Oryza sativa with 3 samples.

Results

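The miR444 family of rice (Oryza sativa) was followed in young panicles of japonica plants of 3 genotypes, the mutants ld-1 and ld-2 and the wild type, with 1 small RNA library each. Its members were all entries of the deposited read count table whose name carries the family number of miR444 and no other: 6 of 367 mature sequences. They were set by name, with earlier results of these data known when members were chosen. The series title gives lodiculeless spikelet, the origin of the ld mutants, as a mutation of miR172b that controls cleistogamy, the state in which grass florets stay shut. No further allele, background or plant number was given in the labels, no treatment was applied, and the labels give greenhouse and field growth without saying which held for a sample. Seedlings of all 3 genotypes spent their first 10 days on half-strength Murashige and Skoog medium before soil. RNA of 20 to 30 nt was sequenced from each panicle extract. With no replicate, the differences below carry intervals for counting error only, and none could be set against variation among plants.

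miR444 is a monocot miRNA family whose genes are transcribed antisense to the MADS-box genes that it represses, so that precursor and target share sequence in opposite orientation. Its rice targets include OsMADS23, OsMADS27 and OsMADS57, MADS-box transcription factors of the AGL17 group. Through them the family is known in rice for roles in tillering, nitrate signalling and antiviral RNA silencing. Targets were not measured in these libraries.

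The 6 sequences are shown because their offsets and near-identity set what can be told apart. They were copied 5′ to 3′ from the deposited table, with T for U, and capitals mark bases 2 to 8, the seed.
miR444b//miR444c upstream: tGCAGTTGttgtctcaagctt
miR444b//miR444c downstream: tGTTGTCTcaagcttgctgcc
miR444d: tTGTGGCTttcttgcaagttg
miR444a: gCTAGAGGtggcaactgcata
miR444e: tGCAGTTGctgcctcaagctt
miR444f: tGCAGTTGttgcctcaagctt

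All 6 were 21 nt long, the length of 56.1% of the sequences in the table. Of the 6, 5 began with T, against 44.1% of the table, and miR444a began with G. The table listed 2 different sequences under the joined name miR444b//miR444c. The last 15 bases of one are the first 15 of the other, a shift of 6 nt, and they are called upstream and downstream here.

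The seed GCAGTTG was shared by 3 members, the upstream miR444b//miR444c sequence, miR444e and miR444f, and by no sequence outside the family. From the upstream sequence to miR444f the change is T12C, and to miR444e the changes are T9C and T12C, with base 1 at the 5′ end. The sources used here do not give how reads were assigned among near-identical sequences, so the split among these 3 is uncertain. The other 3 members each had a seed of their own. Bases 12 to 19 of miR444a are the exact reverse complement of the first 8 bases of the upstream sequence and of miR444f, and with miR444e the complementary run is 9 nt long. Aligned end to end, the nearest sequence of the same length outside the family differed from any member by at least 9 substitutions. In any register, the longest identical run shared with a sequence outside the family was 10 nt, between miR444d and the sequences of miR396e and miR396f.

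The libraries held 140807 miRNA reads in ld-1, 66642 in ld-2 and 116818 in wild type. A level is given in scaled RPM, RPM (reads relative to library size) after TMM scaling, which trims extreme ratios before libraries are matched; on this scale 1 read stood for 7.94 in ld-1, 13.7 in ld-2 and 8.37 in wild type. The 5 most abundant sequences of the table took 73.4% to 79.9% of the reads. The miR172b entry had 2 reads in ld-1, 1 in ld-2 and 298 in wild type. The 12 miR2118 sequences, reproductive miRNAs known from rice panicles, were detected in every library, at 9592, 39530 and 10814 scaled RPM in ld-1, ld-2 and wild type.

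miR444 as a family was moderately abundant and lower in both mutants than in wild type by less than 2-fold. It had 1133 reads in ld-1, 686 in ld-2 and 1415 in wild type. That was 0.805% of miRNA reads in ld-1 (exact 95% binomial interval 0.759% to 0.853%), 1.03% in ld-2 (0.954% to 1.11%) and 1.21% in wild type (1.15% to 1.28%). On the scaled level the family stood at 8997 RPM in ld-1, 9416 RPM in ld-2 and 11844 RPM in wild type. The mutants were close to each other and both lay under wild type, with intervals that did not reach the wild type interval.

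The family sum had a log2 ratio to wild type of -0.40 in ld-1 (95% interval for counting error -0.51 to -0.28), or 1.32-fold lower. In ld-2 it was -0.33 (-0.46 to -0.20), or 1.26-fold lower. Both comparisons share the single wild type library, so any departure of that library would enter both alike. Between the mutants the ratio of ld-2 to ld-1 was 0.07 (-0.07 to 0.20), an interval that includes 0. Its sign turned with the scaling: with RPM of all miRNA reads it was 0.36 (0.22 to 0.49), and with TMM over all sequences, including rare ones, it was -0.08 (-0.22 to 0.06).

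**Figure D1:**
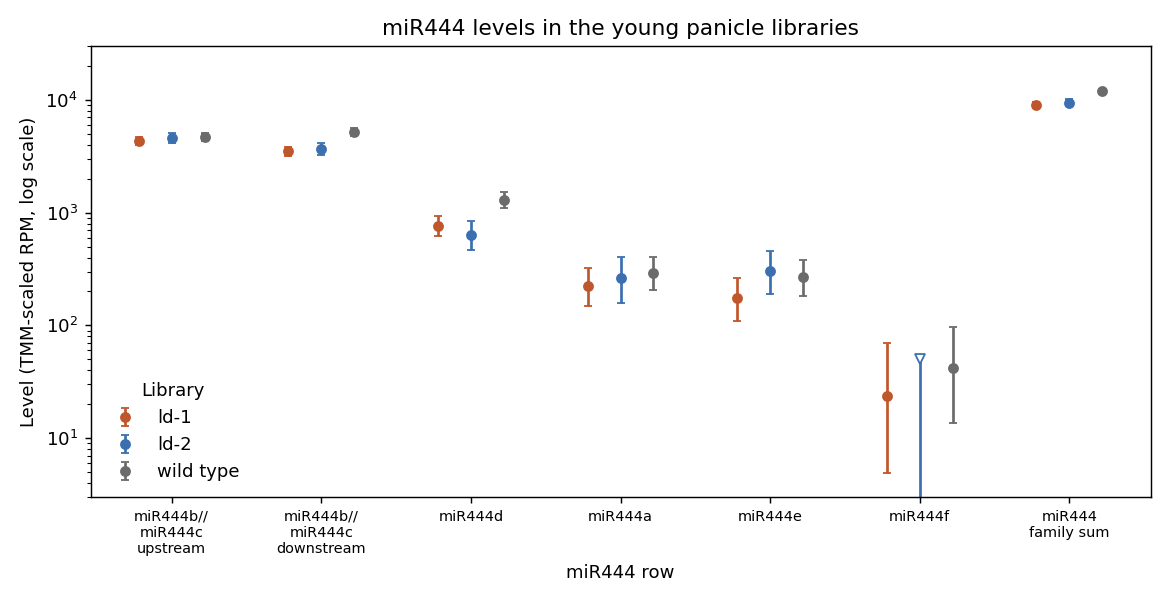
Level of each miR444 sequence and of the family sum in TMM-scaled RPM on a log axis, for the ld-1, ld-2 and wild type libraries from left to right. Points are values, bars are exact 95% intervals for counting error, and the open triangle is the upper limit for miR444f in ld-2, which had 0 reads. The downstream miR444b//miR444c sequence and miR444d lay higher in wild type (5223 and 1306 RPM) than in either mutant, and the intervals of the upstream sequence overlapped across the libraries.

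The miR444b//miR444c pair carried most of the family: 984 of its reads in ld-1 (86.8%), 599 in ld-2 (87.3%) and 1187 in wild type (83.9%). The upstream sequence, which shares its seed with miR444e and miR444f, had 542 reads in ld-1, 334 in ld-2 and 563 in wild type, or 4304, 4584 and 4712 scaled RPM in that order. All 3 intervals overlapped. Set against wild type, its log2 ratio came to -0.13 for ld-1 (interval -0.30 to 0.04) and -0.04 for ld-2 (interval -0.24 to 0.16), and the ld-2 value turned to 0.06 with RPM of all miRNA reads. At this depth a difference from wild type was not detectable for it in either mutant under the TMM scaling, and RPM of all miRNA reads gave -0.32 (-0.50 to -0.15) in ld-1.

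The downstream sequence had 442 reads in ld-1, 265 in ld-2 and 624 in wild type, or 3510, 3637 and 5223 scaled RPM. Both mutants lay below wild type without overlap of the intervals. The log2 ratio to wild type came to -0.57 for ld-1 (interval -0.75 to -0.40), 1.49-fold lower, and -0.52 for ld-2 (interval -0.73 to -0.31), 1.44-fold lower, neither reaching 2-fold. Over the 8 alternatives in scaling, depth and added reads, the ld-1 value ranged from -0.77 to -0.51 and the ld-2 value from -0.63 to -0.43. Between ld-2 and ld-1 the ratio was 0.05 (-0.17 to 0.27), and its sign depended on the scaling.

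The pair was then compared within each library, a measure that needs no scaling between libraries; this comparison was chosen after the values were seen. Of the reads of the pair, the upstream sequence took 55.1% in ld-1 (51.9% to 58.2%), 55.8% in ld-2 (51.7% to 59.8%) and 47.4% in wild type (44.6% to 50.3%). The more abundant of the pair was thus the upstream one in both mutants and the downstream one in wild type, where the interval included equal shares. The upstream to downstream ratio was 1.23 in ld-1, 1.26 in ld-2 and 0.902 in wild type. Relative to wild type the ratio was 1.36 times as high in ld-1, a log2 value of 0.44 (0.19 to 0.69), and 1.40 times as high in ld-2, a log2 value of 0.48 (0.19 to 0.77). Between the mutants the log2 value was 0.04 (-0.26 to 0.34). Counting miR444e and miR444f with the upstream sequence gave 0.42 for ld-1 (interval 0.17 to 0.66) and 0.48 for ld-2 (interval 0.20 to 0.77). Among 100 sets in which the deeper libraries were thinned to 66642 reads, the interval excluded 0 in 79 sets for ld-1 and in all 100 for ld-2, with median values of 0.45 and 0.48. For ld-2 only the wild type library was thinned, while for ld-1 both libraries were, so these counts cannot be compared. The sets redraw the same reads and so give no further evidence for the shift.

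**Figure D2:**
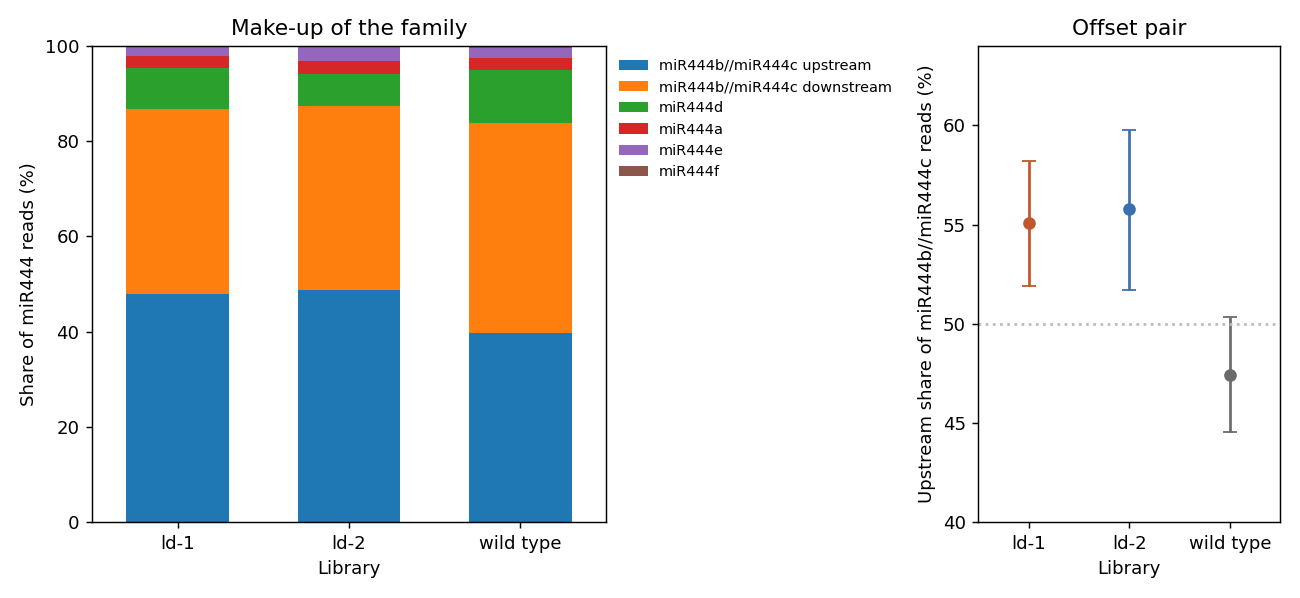
Left, the share of miR444 reads (%) taken by each sequence, stacked, in ld-1, ld-2 and wild type; right, the share (%) of miR444b//miR444c reads taken by the upstream sequence, with exact 95% binomial intervals and a dotted line at equal shares (the axis starts above 0). The upstream share was 55.1% in ld-1 and 55.8% in ld-2, against 47.4% in wild type.

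miR444d, with a seed unlike those of the other members, showed the widest difference of the 5 members tested in each comparison with wild type. It had 96 reads in ld-1, 46 in ld-2 and 156 in wild type, or 762, 631 and 1306 scaled RPM. Both mutants stood below wild type, and their own intervals overlapped. Its log2 ratio to wild type came to -0.78 for ld-1 (interval -1.16 to -0.40), 1.71-fold lower, and -1.05 for ld-2 (interval -1.56 to -0.57), 2.07-fold lower. The ld-2 value passed the threshold used here, a log2 ratio of at least 1 in size with a 95% interval that excludes 0. It was close to that threshold: with RPM of all miRNA reads it was -0.95 and with 5 reads added to each count -0.94, both short of 2-fold, and it was called in 66 of the 100 thinned sets. Its share of family reads was 8.47% in ld-1 (6.92% to 10.2%), 6.71% in ld-2 (4.95% to 8.84%) and 11.02% in wild type (9.44% to 12.8%). The log2 odds of a family read being miR444d, relative to wild type, were -0.42 for ld-1 (interval -0.82 to -0.02) and -0.79 for ld-2 (interval -1.31 to -0.28). Between ld-2 and ld-1 the log2 ratio was -0.27 (-0.81 to 0.25), so the mutants were not told apart, and its sign turned to 0.02 with RPM of all miRNA reads.

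miR444a, which holds a stretch complementary to the shared seed, and miR444e, which carries that seed, were far rarer than the miR444b//miR444c sequences. miR444a had 28 reads in ld-1, 19 in ld-2 and 35 in wild type, or 222, 261 and 293 scaled RPM, with overlapping intervals. The log2 ratio to wild type came to -0.40 for ld-1 (interval -1.17 to 0.36) and -0.17 for ld-2 (interval -1.06 to 0.68). miR444e had 22 reads in ld-1, 22 in ld-2 and 32 in wild type, or 175, 302 and 268 scaled RPM, again overlapping. For miR444e it came to -0.62 for ld-1 (interval -1.47 to 0.21) and 0.17 for ld-2 (interval -0.68 to 1.00). A 2-fold difference lay within each of these 4 intervals, so at these read numbers such a difference could not be told from none.

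miR444f, which differs from the upstream sequence by T12C, had 3 reads in ld-1, 0 in ld-2 and 5 in wild type and was not tested. Its 0 reads in ld-2 allow a level of up to 41.2 scaled RPM by a floor of 3 counts, and up to 50.6 by the exact 95% interval. Wild type stood at 41.9 scaled RPM (13.6 to 97.7), an interval that overlaps that of ld-2, so a difference was not detectable at this depth. The ld-1 log2 ratio of -0.81 had an interval of -3.50 to 1.55.

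Within each library the order of the members was nearly the same. The upstream sequence stood first in ld-1 and ld-2 and the downstream one second, and their intervals did not overlap, narrowly so in ld-2. In wild type the downstream sequence stood first, and the intervals of the pair overlapped. miR444d came next in each library, with an interval clear of those above and below it. miR444a and miR444e, next in order, overlapped in each library, with miR444e the higher in ld-2 alone, and miR444f was last. Among all 367 sequences the pair ranked 18th and 22nd in ld-1, 19th and 22nd in ld-2, and 17th and 15th in wild type, upstream first. miR444d ranked 49th, 55th and 38th in ld-1, ld-2 and wild type.

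Counted over the members, 5 of 6 reached 30 reads summed over the libraries and were tested, as were 109 of all 367 sequences. In ld-1, 0 of the 5 were called higher or lower than wild type, against 10.1% of all tested sequences called in either direction, 6.42% higher and 3.67% lower. At 1.5-fold 1 of the 5, miR444d, was called lower in ld-1, against 8.26% of all tested sequences. All 5 had ratios below 0, with a median of -0.57, against 51.4% of all tested sequences and a median of -0.06. In ld-2, 1 of the 5, miR444d, was called lower, against 7.34% of all tested sequences called lower, and 0 of 5 were called higher, against 21.1% (28.4% in either direction). Of the 5, 4 had ratios below 0, with a median of -0.17, against 49.5% and a median of 0.03. Between ld-2 and ld-1, 0 of 5 were called, against 24.8% of all tested sequences (19.3% higher and 5.5% lower), and the medians were 0.09 for the members and 0.04 for all. With RPM of all miRNA reads 1 of 5, miR444e, was called higher in this comparison of the mutants, against 21.1% of all tested sequences. Intervals lay below 0 for 2 of the 5 members in each comparison with wild type, the downstream sequence and miR444d, against 19.3% of all tested sequences in ld-1 and 27.5% in ld-2.

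**Figure D3:**
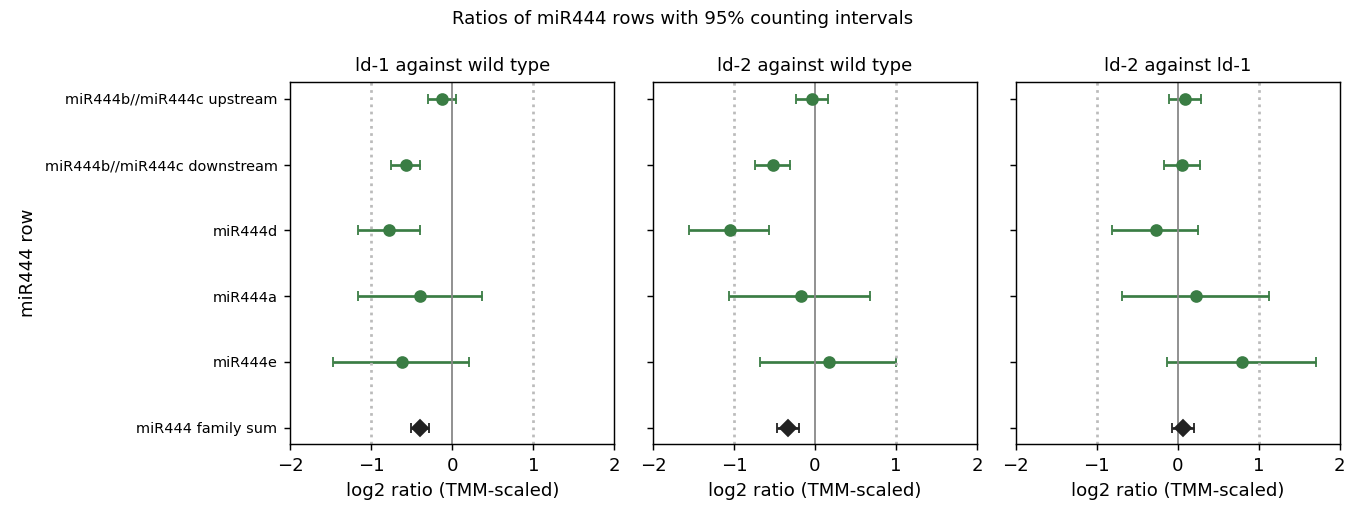
log2 ratios of the 5 tested miR444 sequences and the family sum (diamond) in the 3 comparisons, on the TMM scale, with exact 95% intervals for counting error; dotted lines mark 2-fold. Only miR444d in ld-2 (-1.05) lies past 2-fold with an interval that excludes 0.

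**Figure D4:**
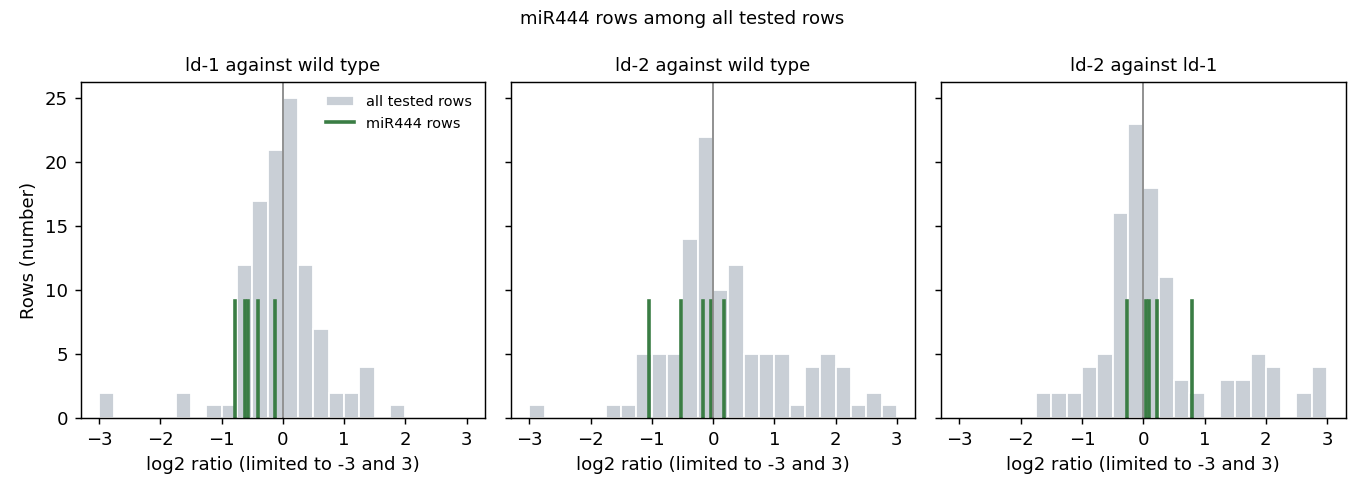
Number of tested sequences by log2 ratio (grey bars, 109 in each panel, values beyond -3 and 3 drawn at the ends) with the 5 tested miR444 sequences as green lines. The tested miR444 sequences lie between -0.78 and -0.13 in ld-1 and between -1.05 and 0.17 in ld-2, within the range of the other sequences.

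Other miRNAs that bear on the same processes were set beside the family. miR162 and miR168, which act on the miRNA machinery itself through the transcripts of DCL1 and AGO1, had 4 tested members and 0 called in any comparison, where 10.1% of all tested sequences were called in ld-1 and 28.4% in ld-2 against wild type, and 24.8% in ld-2 against ld-1. Their summed reads had a log2 ratio to wild type of -0.39 for ld-1 (interval -0.47 to -0.32), beside the -0.40 of miR444, and -0.08 for ld-2 (interval -0.16 to 0.002). Most of these reads were of 1 miR168a sequence, with 1762 of 2805 in ld-1, 1347 of 2019 in ld-2 and 2244 of 3494 in wild type. That sequence was at -0.42 for ld-1 and -0.02 for ld-2. miR156 and miR529, which repress SPL factors in phase change and panicle branching, were listed with miR535, and 4 of the 9 sequences of this list were tested. Of these, 1 was called lower in ld-2 than in wild type, where 7.34% of all tested sequences were. This was the sequence shared by miR156a to miR156j (log2 -1.60, with 92 reads in ld-2 and 458 in wild type). In ld-1, 0 of the 4 were called lower than wild type, where 3.67% of all tested sequences were. The sequence of miR156a to miR156j was also called lower in ld-2 than in ld-1 (log2 -1.54, -1.88 to -1.22), where 5.5% of all tested sequences were. The sums of all 9 sequences of the list were at -0.50 for ld-1 (interval -0.59 to -0.41) and -0.65 for ld-2 (interval -0.76 to -0.54). Most reads were of 1 miR535 sequence, with 1116 of 1828 in ld-1, 732 of 955 in ld-2 and 1713 of 2450 in wild type. Its log2 ratio to wild type was -0.69 for ld-1 and -0.51 for ld-2. The miR156a to miR156j sequence was at -0.06 for ld-1 (interval -0.25 to 0.13). Of the nutrient and auxin families miR393, miR395, miR399 and miR827, 2 of 14 sequences were tested, both named miR393, a family that targets auxin receptor genes. Against wild type, 0 of these 2 were called in either mutant, beside the same 10.1% in ld-1 and 28.4% in ld-2. The summed reads of the 14 had a log2 ratio to wild type of -0.21 for ld-1 (interval -0.70 to 0.27) and 0.68 for ld-2 (interval 0.20 to 1.15), the ld-2 value being of opposite sign to the -0.33 of miR444. More of these reads were of miR393b than of all the rest, with 39 of 71 in ld-1, 56 of 76 in ld-2 and 56 of 78 in wild type. By itself miR393b was at -0.60 for ld-1 (interval -1.23 to 0.02) and 0.71 for ld-2 (interval 0.15 to 1.27). In ld-1 the sum, at -0.21, did not follow miR393b, as the rarer sequences of the list gave the other reads. In the comparison of ld-2 with ld-1, miR393b was called higher (log2 1.31, 0.70 to 1.94), where 19.3% of all tested sequences were.

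The sequences whose pair of log2 ratios to wild type lay nearest to that of the miR444 sum were picked among 69 others with at least 100 reads, by Euclidean distance. They were miR169e (-0.33 in ld-1 and -0.29 in ld-2), the sequence of miR164a//miR164b//miR164f (-0.34 and -0.42), miR2871a//miR2871b (-0.25 and -0.27), miR529a (-0.35 and -0.49) and miR162a (-0.29 and -0.17), at distances of 0.0835 to 0.192. The likeness rests on 3 libraries and a shared wild type. Of the 3 sequences nearest in summed reads to the upstream sequence, miR166h was at 0.10 in ld-1 and -0.78 in ld-2, miR319b at 0.51 and -0.65, and miR2118f//miR2118j//miR2118m at -0.19 and 1.89.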

How the data were processed

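Small RNA libraries (NEXTFlex Small RNA-seq kit v3, Illumina MiSeq) were made from young panicle RNA, per the labels' protocols. The values are raw read counts deposited by the authors, per the file headers, 1 row per mature sequence and 1 column per library. The sources used here do not give how reads were trimmed, mapped or counted, or which miRNA release was used. Members, lists and tests were chosen with earlier results of these data known.

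Reads were scaled by TMM (edgeR 4.0.16, R 4.3.3) over the 109 sequences with at least 30 summed reads, with full library sizes, giving factors of 0.894 for ld-1, 1.09 for ld-2 and 1.02 for wild type. The written plan named all rows for the scaling; TMM over all rows was therefore added as an alternative. Ratios carry exact 95% intervals (Clopper-Pearson on both counts) and were called at 2-fold with the interval excluding 1. Ratios of ratios carry exact conditional intervals. The interval step for ratios was tried on simulated counts that held counting error alone, the error it assumes. That check does not cover the ratios of ratios or variation among plants. No p-value was computed, as there was 1 library per genotype. Reads are not independent molecules, and intervals and floors (3 counts) cover counting error only. Python 3.11.15, numpy 2.4.6, scipy 1.17.1, pandas 2.3.3 and matplotlib 3.10.9 were used.

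Named were all miR444 sequences, up to 3 tested members by summed reads of each list, the 5 sequences nearest in pattern and the 3 nearest in abundance. Of the lists, only those with a call, a summed value or most of the reads of a sum are printed. miR172b and miR2118 were added as facts of the series. Tried as alternatives were scaling by DESeq2 1.42.0 size factors, by RPM of all miRNA reads, by totals that leave out the 5 most abundant sequences and by TMM without miR444, thinning to the ld-2 depth of 66642 reads (the median of 100 sets, in place of the 1 set first drawn), 0.5 or 5 added reads, other read minima (none or 100), 1.5-fold, a 99% interval, the member median, and the sum without the most abundant member.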

Additional observations from a re-analysis of the deposited data

Results flagged for a closer look

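miR444e had ratios to wild type of opposite sign in the mutants, -0.62 in ld-1 (22 reads, against 32 in wild type) and 0.17 in ld-2 (22 reads), and a log2 ratio of ld-2 to ld-1 of 0.79 (95% interval for counting error -0.13 to 1.71). The difference was not tested against the spread between plants, and with RPM of all miRNA reads it was 1.08 (0.16 to 2.00).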

How the results depend on the processing

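The family sum stayed below wild type in both mutants under all 10 alternatives, between -0.60 and -0.33 for ld-1 and between -0.56 and -0.17 for ld-2. In ld-1 it was -0.59 with RPM of all miRNA reads, -0.57 as the member median and -0.60 without the most abundant member. In ld-2 the member median was -0.17, and the sum without the most abundant member was -0.56. Between ld-2 and ld-1 it was 0.36 with RPM and -0.079 with TMM over all sequences, which was added after seeing the data. RPM shifted all ratios of ld-1 to wild type by -0.19, of ld-2 to wild type by 0.10 and of ld-2 to ld-1 by 0.29, and TMM over all sequences shifted them by 0.03, -0.11 and -0.15. At 1.5-fold 1 member, miR444d, was called lower in ld-1, where 8.26% of all tested sequences were. In ld-2 the number called was 0 with RPM and with 5 added reads, and 1 under the other 10 alternatives, of which thinning gives the median of 100 sets; miR444d was called in 66 of these. The 100 sets took the place of 1 set after its outcome for miR444d in ld-2 and for the offset pair in ld-1 was seen to depend on the draw. Between the mutants 1, miR444e, was called higher with RPM, where 21.1% of all tested sequences were. Leaving the 5 most abundant sequences out of the total raised the family share to 3.999% in ld-1, 3.88% in ld-2 and 5.62% in wild type. Depth limits miR444a, miR444e and miR444f, with 0 to 35 reads a library. No paired analysis was possible because each genotype had 1 library.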
